A study of Mus musculus with 12 samples.

Results

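The subject is a set of 10 chemokine genes in mouse liver with and without ischemia: Ccl2, Ccl7, Ccl3, Ccl4, Ccl5, Cxcl1, Cxcl2, Cxcl10, Cxcl9 and Cxcl13. They were chosen by gene name from an expression table of 53796 genes, and each name matched 1 row. Total RNA from whole liver was sequenced in 12 libraries, 3 in each of 4 groups. The Sham group and the WT group both carry the wild-type genotype, and the series title places the difference between them in ischemia. The other groups are labelled RIPK1 D138N, a knock-in whose RIPK1 protein lacks kinase activity, and TNFR1/2 KO, a knockout of both tumor necrosis factor (TNF) receptors. Neither mutant has a Sham group, so a difference of genotype before ischemia and a difference in the response to it cannot be told apart. The length of ischemia, any reperfusion, and the age and sex of the mice are not given in the sources used here. The labels do not say whether replicates are separate mice. Sex-linked transcripts given below show more than 1 mouse in RIPK1 D138N, and leave the other groups unsettled. The p-values measure the spread between these libraries, which may be technical in part or, in the other groups, in full.

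Chemokines are small secreted proteins that bind to heparan sulfate on vessel walls and draw leukocytes along a gradient through G protein-coupled receptors. Ccl2 and Ccl7 call monocytes through Ccr2, Cxcl1 and Cxcl2 call neutrophils through Cxcr2, Cxcl9 and Cxcl10 call activated T and NK cells through Cxcr3, and Cxcl13 calls B cells through Cxcr5. TNF and interleukin-1 raise many of these transcripts through the transcription factor NF-kB, and RIPK1 acts directly downstream of TNF receptor 1, both as a scaffold for NF-kB signalling and, through its kinase, in cell death. In injured liver, Kupffer cells, sinusoidal endothelium, stellate cells and hepatocytes can all make chemokines.

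The genes lie in clusters, with positions here from the GENCODE annotation of build GRCm38. On chromosome 11, Ccl2 (82035571 to 82037453, plus strand) ends 8258 bases before Ccl7 (82045712 to 82047525, plus strand). Ccl5 (83525778 to 83530518, minus strand), Ccl3 (83647844 to 83649355, minus strand) and Ccl4 (83662584 to 83664683, plus strand) follow on the same chromosome. On chromosome 5, Cxcl1 (90891241 to 90893115, plus strand) ends 10755 bases before Cxcl2 (90903871 to 90905938, plus strand). Cxcl9 (92321347 to 92328079, minus strand), Cxcl10 (92346638 to 92348889, minus strand) and Cxcl13 (95956951 to 95961068, plus strand) lie further along. The table gives Cxcl10 a locus that also holds Art3 on the opposite strand, and whether counting used strand is not stated. Art3 itself was listed at 0.0512 to 3.22 FPKM (fragments per kilobase of transcript, scaled to the mapped fragments of the library, a level per length). Ccl2 likewise shares its locus with Gm17268, which was listed at 0 in all 12 libraries.

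The upstream sequences of 2 neighbouring pairs are shown because members of each pair behaved differently in the libraries. They come from the RefSeq promoter table of GRCm38.p6, which holds 6 of the 10 genes, and run from base -120 to base -31 before the annotated start, on the coding strand. Capitals mark matches on either strand to a wide form of the kappa B element bound by NF-kB (GGG, any 3 bases, TTCC) or to the AP-1 element TGANTCA.
Cxcl1: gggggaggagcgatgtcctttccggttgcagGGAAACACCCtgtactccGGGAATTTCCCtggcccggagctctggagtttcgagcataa
Cxcl2: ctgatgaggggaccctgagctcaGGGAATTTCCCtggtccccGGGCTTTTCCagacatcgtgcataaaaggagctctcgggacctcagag
Cxcl10: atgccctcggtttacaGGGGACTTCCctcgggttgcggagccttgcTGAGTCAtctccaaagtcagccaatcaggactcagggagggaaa
Cxcl9: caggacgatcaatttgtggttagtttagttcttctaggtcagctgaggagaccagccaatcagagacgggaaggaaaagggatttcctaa
The windows are chr5:90891125-90891214 for Cxcl1, chr5:90903779-90903868 for Cxcl2, chr5:92348920-92349009 for Cxcl10 and chr5:92328110-92328199 for Cxcl9. Cxcl1 and Cxcl2 share the 14-base run gggaatttccctgg, which begins at base -71 in Cxcl1 and at base -97 in Cxcl2. The stricter kappa B form (GGGA, any base, TTTCC) matched in both genes and in 0.411% of all 32851 promoters of 250 bases before to 50 after the start. Its matches also match the wide form, which 5.56% of promoters hold and which was added after these sequences were seen. Cxcl10 held the wide form at -159 to -150 and at -104 to -95, and the AP-1 form at -74 to -68, which 7.81% of promoters hold. It also held the interferon-response form (GAAA, any 2 bases, GAAA) at -213 to -204, which 3.44% of promoters hold. Cxcl9 held none of these letters before its start, but held the AP-1 form from base 31 to base 37 after it, inside the window. Ccl3 and Cxcl13 held none of the 4 forms in the window, and a match is a description of letters, not of binding.

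Before the chemokines are described, the libraries need a few facts. The summed FPKM of the table ranged from 649400 to 750500 in Sham, from 288900 to 303500 in WT, and from 441300 to 518600 in the mutants, so every gene is read against a different total. Low FPKM values moved in whole-number steps, which put the depth of the libraries within 0.44 and 2.38 times that of a Sham library, with WT deepest. Tnfrsf1a, which encodes TNF receptor 1, averaged 18.5 ± 3.28 FPKM (SD, n = 3) in the libraries labelled TNFR1/2 KO against 19.8 ± 1.10 in RIPK1 D138N and 35.1 ± 2.90 in WT, and Tnfrsf1b averaged 6.83 ± 2.70 against 5.52 ± 0.499 and 9.51 ± 1.20. The knockout therefore does not show as a loss of transcript per gene, and FPKM per gene cannot show which exons the reads cover. RIPK1 D138N replicates 2 and 3 stand apart from the other 10 libraries, with Xist at 20.1 and 23.4 FPKM and Ddx3y at 0.0176 and 0, whereas the others had Xist at 0.0824 or less and Ddx3y at 11.97 or more. By these sex-linked transcripts, replicates 2 and 3 read as female and the other 10 libraries as male. Differences of RIPK1 D138N from the other groups may thus carry sex as well as genotype, which was not tested. Liver identity was checked with 8 hepatocyte markers, of which 7 were detected and Alb was listed at 0 in every library, a sign that a listed 0 can be a failed estimate. In whole tissue, fewer cells of a type and less RNA per cell cannot be told apart.

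Ischemic WT liver had far more Ccl2, Ccl7, Cxcl2 and Cxcl10 transcript than Sham liver, and both mutants had less Ccl2, Ccl7 and Ccl3 but more Ccl5 and Cxcl9 than WT. Differences were tested with limma on log2(FPKM + 1), fitted over the 11728 genes that reached 1 FPKM in 3 or more libraries, and called at a Benjamini-Hochberg adjusted p under 0.05. A log2 difference on this scale understates the change of a gene near 0. Of the 10 members 9 were tested: Ccl4 stayed under the filter, Ccl3 passed it only through WT and Cxcl13 only through Sham. In WT against Sham, 5 members rose, where 16.4% of all genes tested rose, and 3 fell, where 41.9% fell. The libraries of WT and Sham did not overlap for 9 of the 10 members, and for 63.5% of all genes tested. In RIPK1 D138N against WT, 2 members rose and 29.8% of genes rose, and 3 members fell and 21.9% of genes fell; libraries were apart for 6 of 10 members and 60.3% of genes. In TNFR1/2 KO against WT, 2 members rose with 29.6% of genes, and 3 fell with 17.5% of genes; libraries were apart for 7 of 10 members and 57.7% of genes. These comparisons share the WT libraries. The median difference of all genes in WT against Sham was -0.36, and median-of-ratios scaling brought the medians of all 6 comparisons to within -0.03 and 0.03.

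**Figure D1:**
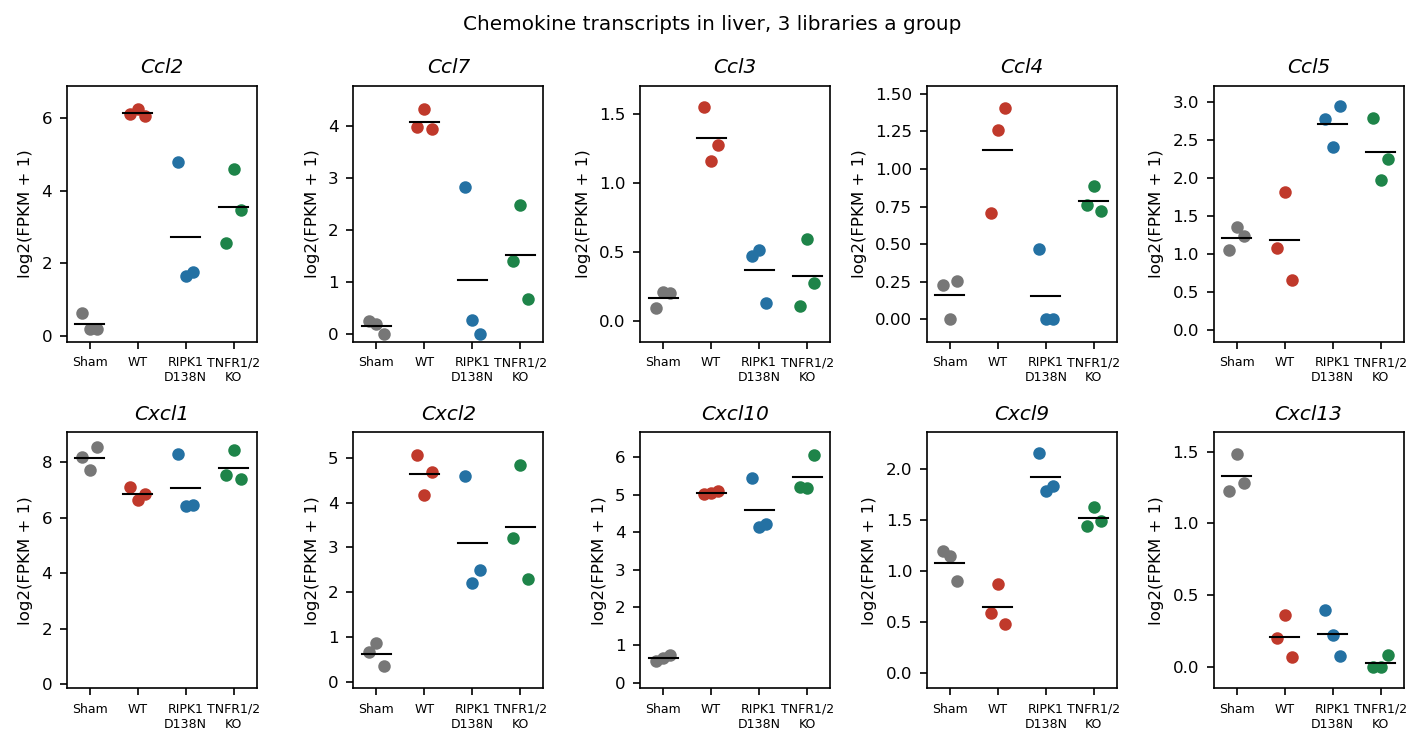
Levels of the 10 chemokine transcripts as log2(FPKM + 1) on a linear axis for each of 4 groups; points are the 3 libraries and the bar is their mean. Ccl2, Ccl7, Cxcl2 and Cxcl10 sit near 0 to 1 in Sham and above 3 in every WT library, Cxcl1 is high in all groups, and Cxcl13 stands above 1 only in Sham.

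**Figure D2:**
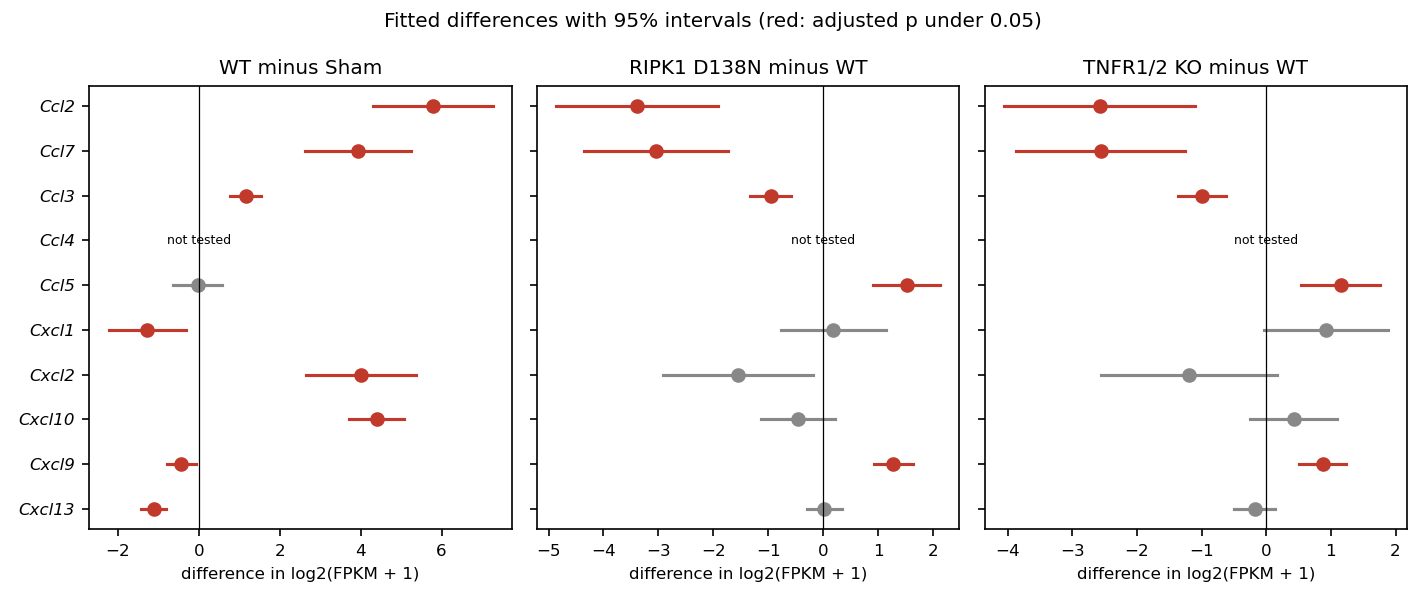
Fitted differences in log2(FPKM + 1) with 95% intervals for each chemokine in WT minus Sham, RIPK1 D138N minus WT and TNFR1/2 KO minus WT; red points passed an adjusted p of 0.05 in limma and grey points did not. Ccl2 lies at 5.78 in the first panel and at -3.39 and -2.58 in the others, while Ccl5 and Cxcl9 lie right of 0 in both mutant panels.

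The monocyte chemokines showed the widest range. Ccl2, the main ligand of Ccr2, was at 0.560, 0.142 and 0.141 FPKM in Sham and at 67.4, 74.6 and 64.6 FPKM in WT. It was at 26.5, 2.13 and 2.41 FPKM in RIPK1 D138N replicates 1, 2 and 3, and at 4.90, 23.3 and 9.98 FPKM in TNFR1/2 KO replicates 1, 2 and 3. All 3 WT libraries lay above every mutant library, and every mutant library lay above every Sham library. The WT mean of 68.9 ± 5.14 FPKM was 245.1 times the Sham mean (log2 difference 5.78, SE 0.681, limma adjusted p = 1.44e-05). Ccl2 fell by 3.39 on the log2 scale in RIPK1 D138N (SE 0.681, limma adjusted p = 0.00114) and by 2.58 in TNFR1/2 KO (adjusted p = 0.00735), to mean levels 6.65 and 5.42 times under WT. Both mutants still exceeded Sham, by 2.39 in RIPK1 D138N (limma adjusted p = 0.0194) and by 3.20 in TNFR1/2 KO (adjusted p = 0.00514). The RIPK1 D138N excess over Sham was not called without the filter (adjusted p = 0.0755), with only those groups fitted (adjusted p = 0.0626), or without either of 2 Sham libraries (adjusted p = 0.0517 and 0.0553).

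Ccl7, a second Ccr2 ligand beside Ccl2 on the chromosome, was at 0.191, 0.145 and 0 FPKM in Sham and at 14.7, 19.0 and 14.3 FPKM in WT. It was at 6.08, 0.201 and 0 FPKM in RIPK1 D138N replicates 1 to 3 and at 1.64, 4.59 and 0.586 FPKM in the TNFR1/2 KO libraries. WT lay above all other libraries, whereas RIPK1 D138N replicates 2 and 3 read within or next to the Sham range. Ccl7 rose by 3.93 in WT over Sham (SE 0.604, limma adjusted p = 0.000121) and fell by 3.05 in RIPK1 D138N (adjusted p = 0.00104) whereas in TNFR1/2 KO it fell by 2.56 (adjusted p = 0.00374), both against WT. Against Sham the Ccl7 differences were 0.88 in RIPK1 D138N (95% interval -0.43 to 2.19, limma adjusted p = 0.289) and 1.37 in TNFR1/2 KO (0.06 to 2.68, adjusted p = 0.112). From the whole-number steps, the Sham levels rested on about 11 fragments of Ccl2 and 4 of Ccl7 over 3 libraries, against 5955 and 1376 in WT. On those fragments Ccl7 was 122.1 times higher in WT than in Sham, with an exact interval of 47.6 to 449 that covers counting error only.

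Without RIPK1 D138N replicates 2 and 3, the fall in that genotype against WT was 1.34 for Ccl2 (limma adjusted p = 0.0707) and 1.25 for Ccl7 (adjusted p = 0.0648), no longer called. The lone remaining library is then assumed to vary like the other groups. Without replicate 1, the falls were 4.42 and 3.94. The size of the Ccl2 and Ccl7 fall in RIPK1 D138N therefore differs between the libraries of that group, and the part of Xist status in it was not tested.

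Ccl3 and Ccl4, inflammatory chemokines made by macrophages and lymphocytes, were scarce throughout. Ccl3 was at 0.0677, 0.154 and 0.153 FPKM in Sham, at 1.92, 1.23 and 1.41 in WT, at 0.386, 0.428 and 0.0938 in RIPK1 D138N and at 0.0795, 0.511 and 0.208 in TNFR1/2 KO. WT stood above all other libraries and the remaining groups overlapped. Ccl3 rose by 1.16 in WT over Sham (SE 0.173, limma adjusted p = 9.98e-05), and fell by 0.95 in RIPK1 D138N (adjusted p = 0.00055) and also fell in TNFR1/2 KO (95% interval -1.37 to -0.62, adjusted p = 0.000449), both against WT. It passed the filter only because WT was high, so those calls were favoured by the filter. The levels rested on 3 fragments in Sham, 114 in WT, 12 in RIPK1 D138N and 14 in TNFR1/2 KO, and the WT to Sham ratio of 13.5 had an exact counting interval of 4.5 to 66.4.

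Ccl4 was at 0.169, 0 and 0.191 FPKM in Sham, at 0.629, 1.39 and 1.65 in WT, at 0.383, 0 and 0 in RIPK1 D138N and at 0.692, 0.851 and 0.648 in TNFR1/2 KO. Every TNFR1/2 KO library lay above every RIPK1 D138N library and within the WT range, unlike Ccl3, for which the mutants overlapped. With no filter, Ccl4 differed by 0.96 in WT over Sham (limma adjusted p = 0.0035), by -0.97 in RIPK1 D138N against WT (adjusted p = 0.0042) and by -0.33 in TNFR1/2 KO against WT (adjusted p = 0.281). The difference between the mutants was -0.63 (SE 0.19, limma adjusted p = 0.3), from 4 fragments in RIPK1 D138N and 29 in TNFR1/2 KO.

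Ccl5, a product of T and NK cells, followed another course. It was at 1.08, 1.55 and 1.35 FPKM in Sham and at 1.11, 2.51 and 0.581 FPKM in WT, with overlapping libraries. It was at 5.82, 4.28 and 6.66 FPKM in RIPK1 D138N and at 5.88, 2.93 and 3.76 FPKM in TNFR1/2 KO, where all 6 mutant libraries exceeded all 6 wild-type ones. WT and Sham differed by -0.03 (95% interval -0.64 to 0.58, limma adjusted p = 0.934), a value that turned to 0.25 with median-of-ratios scaling. Ccl5 rose by 1.52 in RIPK1 D138N over WT (SE 0.281, limma adjusted p = 0.000624) and by 1.15 in TNFR1/2 KO (adjusted p = 0.00459), and over Sham by 1.49 (adjusted p = 0.00224) and 1.12 (adjusted p = 0.0121). The TNFR1/2 KO excess over Sham was 0.90 without replicate 1 (limma adjusted p = 0.055).

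The summed level of 13 T and NK cell markers ran from 1.63 to 3.56 FPKM in Sham, 0.812 to 1.06 in WT, 5.51 to 9.74 in RIPK1 D138N and 2.08 to 5.34 in TNFR1/2 KO, and 1 of the 13 was at 0 in all WT libraries. Gzma, a granzyme of cytotoxic lymphocytes, averaged 0.0376 FPKM in WT, 1.51 in RIPK1 D138N and 0.750 in TNFR1/2 KO and was called higher in both mutants over WT. At that WT mean no WT library reached 1 FPKM, so the filter favoured a rise over WT. Of the 13 markers 2 passed the filter, and the other, Nkg7, was higher over WT by 0.98 in RIPK1 D138N (limma adjusted p = 0.00937) and differed by 0.36 in TNFR1/2 KO (adjusted p = 0.293). In FPKM, whose library totals differ between Sham and WT, the marker sum was lower in WT than in Sham. Ccl5 was not called between these groups. The part of these cells in the Ccl5 level was not tested.

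The neutrophil chemokines Cxcl1 and Cxcl2 share a receptor, Cxcr2, and lie side by side, but their levels differed in kind. Cxcl1 was the most abundant of the 10 transcripts in every library. It was at 290.7, 207.6 and 369.4 FPKM in Sham, at 138.4, 98.7 and 114.5 in WT, at 310.3, 85.2 and 86.6 in RIPK1 D138N and at 183.6, 348.3 and 167.9 in TNFR1/2 KO. All Sham libraries lay above all WT libraries, and each mutant group overlapped Sham or WT. Cxcl1 was called lower in WT than in Sham by 1.27 (SE 0.441, limma adjusted p = 0.0251), yet the difference was -0.79 with median-of-ratios scaling (adjusted p = 0.151), -0.02 with quantile normalization (adjusted p = 0.973) and not called without the filter (adjusted p = 0.0822). It was not called either without any of 2 Sham or 2 WT libraries in turn (limma adjusted p from 0.0577 to 0.0879). The summed level of the 8 hepatocyte markers was 28550 to 34450 FPKM in Sham, 6598 to 8286 in WT, 16100 to 16920 in RIPK1 D138N and 16500 to 19350 in TNFR1/2 KO, and the part of hepatocytes in the Cxcl1 level was not tested.

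Cxcl2 was at 0.578, 0.825 and 0.281 FPKM in Sham and at 32.6, 17.0 and 24.8 FPKM in WT. It was at 23.2, 3.58 and 4.62 FPKM in RIPK1 D138N and at 8.31, 27.5 and 3.89 FPKM in TNFR1/2 KO. Every ischemic library exceeded every Sham library, while 1 library of each mutant reached the WT range. Cxcl2 rose by 4.02 in WT over Sham (SE 0.630, limma adjusted p = 0.000142), by 2.47 in RIPK1 D138N (adjusted p = 0.0116) and by 2.82 in TNFR1/2 KO (adjusted p = 0.00653). Without the filter the RIPK1 D138N excess was not called (limma adjusted p = 0.0507). Against WT, Cxcl2 differed by -1.55 in RIPK1 D138N (95% interval -2.91 to -0.19, limma adjusted p = 0.0548) and by -1.20 in TNFR1/2 KO (-2.56 to 0.17, adjusted p = 0.137). Leaving out the highest library of each mutant gave calls, -2.30 without RIPK1 D138N replicate 1 (limma adjusted p = 0.00316) and -1.89 without TNFR1/2 KO replicate 2 (adjusted p = 0.0215).

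For Cxcl1 the mutants differed from WT by 0.18 in RIPK1 D138N (95% interval -0.77 to 1.14, limma adjusted p = 0.743) and by 0.92 in TNFR1/2 KO (-0.03 to 1.88, adjusted p = 0.104). The RIPK1 D138N value turned to -0.77 with quantile normalization and to -0.43 without replicate 1, and rose to 1.41 without replicates 2 and 3 (limma adjusted p = 0.0204). The TNFR1/2 KO value of 0.92 was called with only those groups fitted (limma adjusted p = 0.0239).

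The interferon-induced ligands of Cxcr3 were also split. Cxcl10 was at 0.504, 0.573 and 0.667 FPKM in Sham and at 31.3, 32.2 and 33.4 FPKM in WT. It was at 42.5, 16.7 and 17.6 FPKM in RIPK1 D138N and at 35.9, 35.2 and 65.9 FPKM in TNFR1/2 KO. Every ischemic library exceeded Sham, and every TNFR1/2 KO library exceeded every WT library. Cxcl10 rose over Sham by 4.40 in WT (SE 0.313, limma adjusted p = 3.29e-07), by 3.94 in RIPK1 D138N (adjusted p = 7.42e-06) and by 4.82 in TNFR1/2 KO (adjusted p = 7.56e-07). Against WT it differed by -0.46 in RIPK1 D138N (95% interval -1.13 to 0.22, limma adjusted p = 0.241) and by 0.43 in TNFR1/2 KO (-0.25 to 1.10, adjusted p = 0.284), a value that turned to -0.23 with quantile normalization. The RIPK1 D138N difference was -0.88 without replicate 1 (limma adjusted p = 0.00861), -1.05 with quantile normalization (adjusted p = 0.0122), and 0.39 without replicates 2 and 3.

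Cxcl9, whose induction depends mostly on interferon-gamma, was at 1.30, 1.21 and 0.869 FPKM in Sham, at 0.509, 0.837 and 0.399 in WT, at 3.48, 2.44 and 2.58 in RIPK1 D138N and at 1.72, 2.09 and 1.81 in TNFR1/2 KO. The 4 groups did not overlap, with WT lowest and RIPK1 D138N highest. Cxcl9 rose by 1.28 in RIPK1 D138N over WT (SE 0.166, limma adjusted p = 4.17e-05) and by 0.87 in TNFR1/2 KO (adjusted p = 0.000887). Over Sham it rose by 0.85 in RIPK1 D138N (limma adjusted p = 0.00269), and differed by 0.44 in TNFR1/2 KO (95% interval 0.08 to 0.80, adjusted p = 0.0687), which passed with median-of-ratios scaling (0.56, adjusted p = 0.0405). The lower level in WT than in Sham, -0.43 (limma adjusted p = 0.0398), was called at the edge of the threshold and was -0.21 with median-of-ratios scaling (adjusted p = 0.329). It was also not called with quantile normalization, without the filter, with only those groups fitted, or without any of 2 Sham and 2 WT libraries in turn (limma adjusted p from 0.0588 to 0.138).

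Cxcl13, the B cell chemokine, was the member with a Sham level that all ischemic groups lacked. It was at 1.34, 1.80 and 1.43 FPKM in Sham, at 0.147, 0.282 and 0.0501 in WT, at 0.316, 0.167 and 0.0546 in RIPK1 D138N and at 0, 0 and 0.0607 in TNFR1/2 KO. No ischemic library reached any Sham library, and the ischemic groups overlapped. Cxcl13 fell by 1.12 in WT (SE 0.146, limma adjusted p = 3.23e-05), by 1.10 in RIPK1 D138N (adjusted p = 0.000242) and by 1.30 in TNFR1/2 KO (adjusted p = 7.97e-05) against Sham. It passed the filter only through Sham, which favoured those calls. The levels rested on 70 fragments in Sham, 24 in WT, 12 in RIPK1 D138N and 2 in TNFR1/2 KO.
The summed level of 12 Kupffer cell and macrophage markers ran from 92.5 to 138.2 FPKM in Sham, 79.3 to 109.8 in WT, 26.2 to 32.6 in RIPK1 D138N and 16.3 to 22.1 in TNFR1/2 KO, with none at 0 in a whole group. Cd68 went against the rest of that list, at 41.6 to 60.8 FPKM in WT and 2.14 to 2.71 in Sham. Without it, an omission chosen after its values were seen, the sum was 90.4 to 135.6 FPKM in Sham, 37.7 to 49.0 in WT, 24.5 to 31.4 in RIPK1 D138N and 13.2 to 20.5 in TNFR1/2 KO, and the 4 groups did not overlap. Of 10 such markers tested, 7 fell and 1 rose in WT against Sham, beside 41.9% and 16.4% of all genes. Also against Sham, 8 fell in RIPK1 D138N, beside 22.7% of all genes, and 9 in TNFR1/2 KO, beside 18.1%. Their part in the Cxcl13, Ccl3 and Ccl4 levels was not tested.

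Because FPKM is per length, the members can be set against each other within a library. In Sham, Cxcl1 made up 97.0% to 98.6% of the summed FPKM of the 10 chemokines, and in WT 39.8% to 47.9%, while the sum itself lay between 214 and 374.5 FPKM in the Sham libraries and between 247.7 and 288.6 FPKM in the WT libraries. Together the other 9 reached at most 6.40 FPKM in a Sham library and at least 141.3 in a WT library. They came to 108.6, 29.9 and 34.1 FPKM in RIPK1 D138N replicates 1 to 3 and to 59.1, 96.9 and 86.9 in TNFR1/2 KO replicates 1 to 3. Ccl2 was second in every WT library, Cxcl10 was second in all 6 mutant libraries, and Cxcl13 was second in every Sham library. In FPKM the totals thus overlapped between Sham and WT while the makeup did not. The whole table summed to 649400 to 750500 FPKM in Sham and to 288900 to 303500 in WT. The overlap of the chemokine totals is therefore not one of shares of the library.

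Set directly against each other, the mutants gave 0 of 9 members called in limma, where 0.929% of all genes tested were called, and 2 members, Cxcl10 and Cxcl9, had an unadjusted p under 0.05. Libraries of the mutants did not overlap for 2 of the 10 members, Ccl4 and Cxcl9, and for 17.1% of all genes tested. Cxcl10 was lower in RIPK1 D138N by 0.88 (95% interval -1.56 to -0.20, limma adjusted p = 0.242), and Cxcl9 was higher by 0.41 (0.05 to 0.77, adjusted p = 0.321). The interval of the Ccl2 difference ran from -2.28 to 0.67 and that of Cxcl2 from -1.72 to 1.01, so likeness of the mutants is not shown. Without RIPK1 D138N replicate 1, 3 members were called lower in RIPK1 D138N than in TNFR1/2 KO: Ccl2 by 1.83 (limma adjusted p = 0.0223), Cxcl1 by 1.35 (adjusted p = 0.0253) and Cxcl10 by 1.30 (adjusted p = 0.00605). The genes called then numbered 588 in place of 109. Without replicates 2 and 3 the sign turned, to 1.24 for Ccl2, 1.31 for Ccl7, 0.49 for Cxcl1 and 1.15 for Cxcl2, none of them called.

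Against Sham, 5 members rose in RIPK1 D138N, where 7.51% of genes rose, and 4 in TNFR1/2 KO, where 7.46% rose. Cxcl13 was the 1 member that fell in each, where 22.7% and 18.1% of genes fell. Libraries did not overlap with Sham for 6 of the 10 members in RIPK1 D138N, where 42.9% of genes did not, and for 8 in TNFR1/2 KO, where 42.1% did not. These comparisons share the Sham libraries.

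Within each mutant group, Ccl2, Ccl7, Cxcl1 and Cxcl2 were all highest in the same library, RIPK1 D138N replicate 1 and TNFR1/2 KO replicate 2. Ccl2 in RIPK1 D138N replicate 1 was 10.98 times the next library of its group, and reached 38.5% of the WT mean against 3.09% and 3.50% in replicates 2 and 3. In TNFR1/2 KO replicate 2 it reached 33.8% against 7.11% and 14.5%. Cxcl9 was highest in the same libraries but with smaller gaps, at 598.7%, 419.3% and 443.7% of the WT mean in RIPK1 D138N and at 296.3%, 358.9% and 311.1% in TNFR1/2 KO. These libraries also held the lowest sum of their group for sinusoidal endothelium markers. The same held for Kupffer cell and macrophage, T and NK cell, B cell, and stellate cell and fibroblast markers. It did not hold in both groups for monocyte, neutrophil, dendritic cell, cholangiocyte or hepatocyte markers. The summed level of 8 sinusoidal endothelium markers was 22.0 FPKM in RIPK1 D138N replicate 1 and up to 133.8 in the group, and 12.9 in TNFR1/2 KO replicate 2 and up to 64.6 in the group. It was 21.7 to 26.5 in WT and 34.6 to 60.6 in Sham, and none of the 8 was at 0 in a whole group. Clec4g, a lectin of liver sinusoidal endothelium, was at 6.73, 55.4 and 34.4 FPKM in RIPK1 D138N replicates 1 to 3, at 21.6, 3.50 and 13.2 in TNFR1/2 KO replicates 1 to 3, and averaged 0.978 in WT and 20.1 in Sham. The part of endothelium and of these other cell types in the chemokine levels was not tested.

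**Figure D3:**
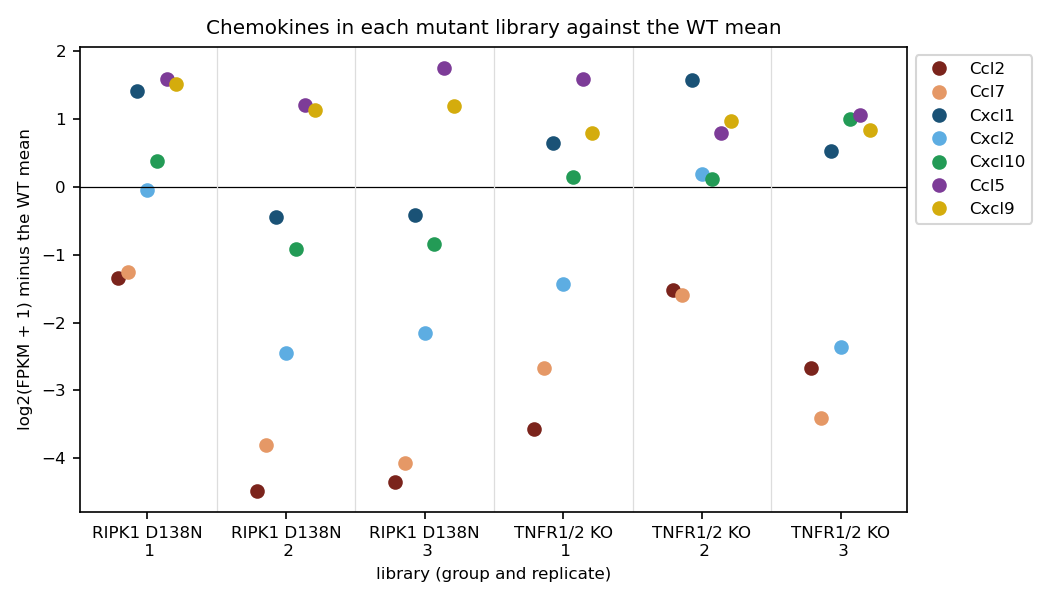
Difference of 7 chemokines from the WT mean, in log2(FPKM + 1), for each of the 6 mutant libraries, which have no order. Ccl2, Ccl7, Cxcl1 and Cxcl2 lie highest of their group in RIPK1 D138N replicate 1 and TNFR1/2 KO replicate 2, while Ccl5 and Cxcl9 lie above 0 in all 6.

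**Figure D4:**
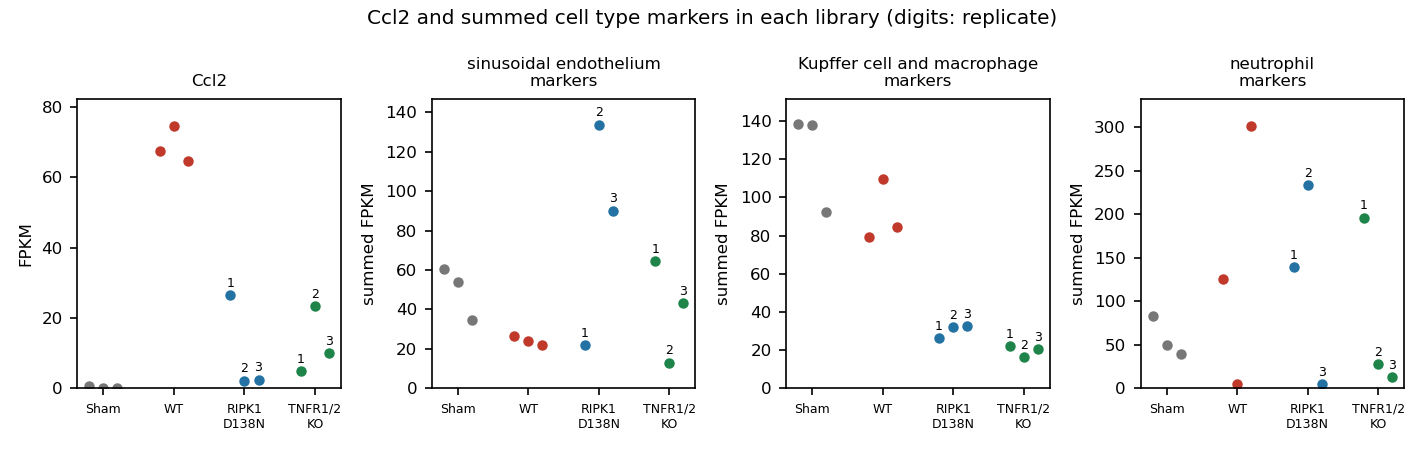
Ccl2 in FPKM and the summed FPKM of 3 lists of cell type markers, 1 point per library, with replicate digits for the mutants. The mutant libraries with most Ccl2 have the lowest endothelial and macrophage sums of their group. The macrophage sum is under 33 in all mutant libraries and in WT holds 41.6 to 60.8 FPKM of Cd68. The neutrophil sum ranges from 4.74 to 302 FPKM, with wide ranges in the ischemic groups.

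Neutrophil marker sums overlapped between all 4 groups. The summed level of 13 markers was 39 to 83.5 FPKM in Sham, 5.03 to 302 in WT, 4.74 to 233.6 in RIPK1 D138N and 12.5 to 196.2 in TNFR1/2 KO. Of the 8 that passed the filter, 0 were called in limma in any of the 6 comparisons. By contrast 16.4% of all genes rose and 41.9% fell in WT against Sham, and 0.929% were called between the mutants. In WT against Sham, Ngp differed by 2.52 (SE 1.4) and S100a8 by 0.12 (SE 1.43), so likeness of the groups is not shown. The lowest and the highest sum of the 12 libraries thus fell in RIPK1 D138N and in WT, groups whose Cxcl1 and Cxcl2 ranges overlap.

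Of 27 other chemokine ligands, 11 passed the filter. In WT against Sham 4 rose and 4 fell, beside 16.4% and 41.9% of all genes. Their median difference was 0.28 beside -0.36 over all genes. Cxcl3 and Cxcl5, further Cxcr2 ligands, rose by 2.22 (SE 0.395, limma adjusted p = 0.000377) and 1.47 (adjusted p = 0.00099), from 0.185, 0 and 0 FPKM of Cxcl3 in Sham to 4.24, 2.68 and 5.21 in WT. Neither reached 1 FPKM in a Sham library, so the filter favoured a rise over Sham. Cxcl12, the stromal ligand of Cxcr4 that retains cells in bone marrow and tissue, fell by 1.65 (limma adjusted p = 1.67e-05), and Ccl27a, an epithelial chemokine, fell by 1.51 (adjusted p = 6.92e-05).

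In RIPK1 D138N against WT 3 of the 11 rose and 4 fell, beside 29.8% and 21.9% of all genes, and in TNFR1/2 KO against WT 4 rose and 5 fell, beside 29.6% and 17.5%. Cxcl12 was at 19.2, 17.9 and 14.7 FPKM in WT, at 66.5, 112.4 and 106.6 in RIPK1 D138N and at 50.4, 53.5 and 53.7 in TNFR1/2 KO, and rose by 2.37 (limma adjusted p = 1.79e-06) and 1.56 (adjusted p = 4.02e-05). Ccl6, a myeloid chemokine, was at 22.3, 20.8 and 26.7 FPKM in WT, at 4.76, 2.39 and 1.84 in RIPK1 D138N and at 2.33, 2.10 and 1.15 in TNFR1/2 KO. It fell by 2.66 (limma adjusted p = 8.2e-06) and 3.10 (adjusted p = 3.4e-06) against WT, and also lay under Sham in both. Cxcl3 fell by 1.73 (limma adjusted p = 0.00276) and 1.55 (adjusted p = 0.00597), and its highest mutant libraries, at 1.80 and 2.05 FPKM, were RIPK1 D138N replicate 1 and TNFR1/2 KO replicate 2, as for Cxcl2. Cxcl3 and Cxcl5 reached 1 FPKM in all WT libraries and in at most 1 library of each mutant, so the filter favoured their falls. In the direct comparison 0 of the 11 were called in limma, beside 0.929% of all genes.

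**Figure D5:**
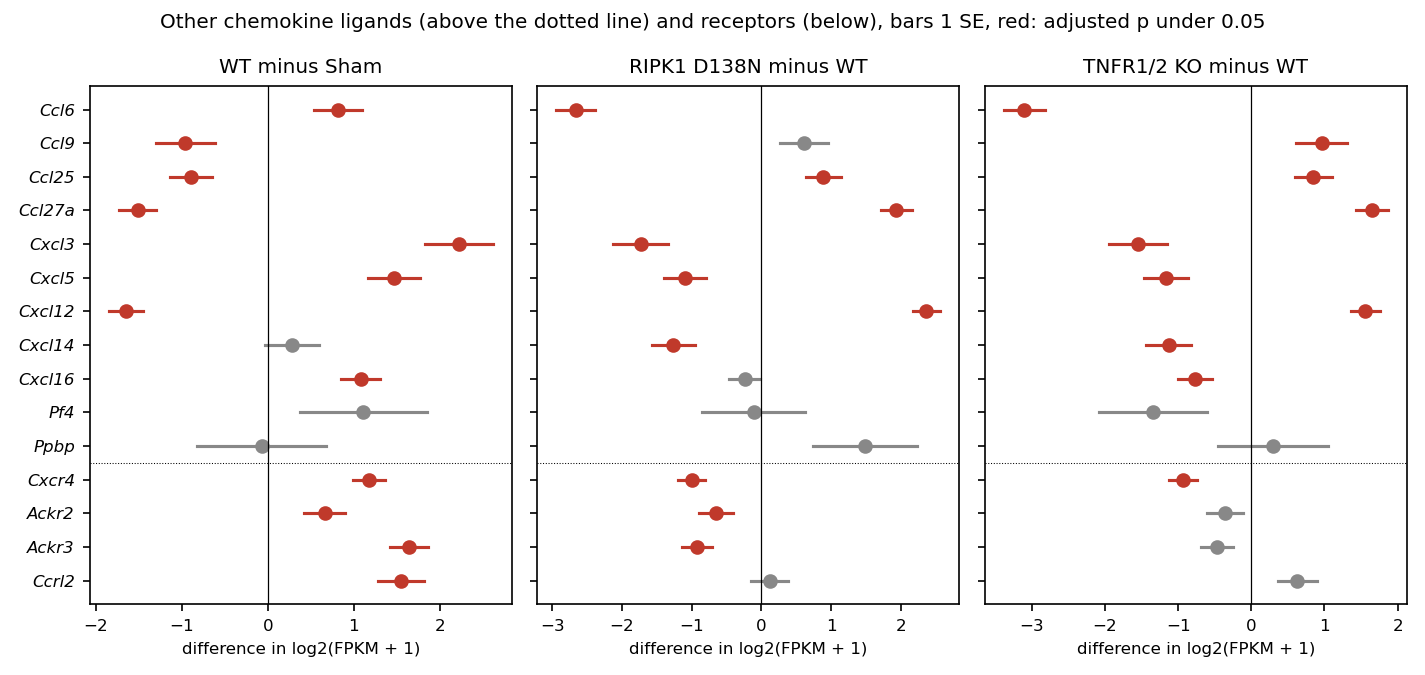
Fitted differences in log2(FPKM + 1), with bars of 1 SE, for the 11 other ligands and 4 receptors tested, in WT minus Sham and each mutant minus WT; red points passed an adjusted p of 0.05 in limma. Ccl27a and Cxcl12 lie left of 0 in WT minus Sham and right of 0 in both mutants, and Cxcl3 and Cxcl5 lie the opposite way.

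Receptors of these chemokines were barely measurable. Over the 12 libraries Ccr2 ranged from 0.0559 to 0.401 FPKM, Cxcr2 from 0 to 0.949, Cxcr3 from 0 to 0.307, Cxcr5 from 0 to 0.126 and Ccr1 from 0.0317 to 1.10, so none of these 5 was tested. Of 23 receptors 4 passed the filter, and all 4 rose in WT against Sham, beside 16.4% of all genes. None of the 4 reached 1 FPKM in a Sham library, so the filter favoured a rise over Sham for all of them. Cxcr4 passed only through WT, and Ackr2 through WT and 1 TNFR1/2 KO library. This also favoured the falls of Cxcr4 in the mutants and of Ackr2 in RIPK1 D138N. Ccrl2, which binds chemerin without signalling, rose by 1.55 (SE 0.266, limma adjusted p = 0.000292), and the scavenger receptor Ackr3 rose by 1.64 (adjusted p = 4.01e-05). Cxcr4 rose by 1.18 (limma adjusted p = 0.000167), and Ackr2, a scavenger of inflammatory CC chemokines such as Ccl2, rose by 0.66 (adjusted p = 0.034). Against WT, 3 fell in RIPK1 D138N, beside 21.9% of all genes, and 1 fell in TNFR1/2 KO, beside 17.5%. Cxcr4 fell in both (limma adjusted p = 0.000754 and 0.00144), from a mean of 2.08 FPKM in WT to 0.522 and 0.593. Ccrl2 was at 4.45, 3.97 and 2.42 FPKM in WT and 4.96, 7.46 and 5.77 in TNFR1/2 KO, and stood over Sham in TNFR1/2 KO by 2.17 (limma adjusted p = 0.000147).

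Of 13 cytokines that induce chemokines, 6 passed the filter, and Tnf (0 to 0.364 FPKM), Ifng (0 to 0.0857) and Ifnb1 (0 to 0.619) did not. Il6 was at 4.42, 1.15 and 4.45 FPKM in WT and at 0.0172 or less in Sham, and rose by 1.99 (SE 0.455, limma adjusted p = 0.00229). It was at 2.79, 0.108 and 0 FPKM in RIPK1 D138N and at 0.513, 1.07 and 0.368 in TNFR1/2 KO, and fell by 1.31 (limma adjusted p = 0.0288) and 1.30 (adjusted p = 0.0326) against WT. Il6 reached 1 FPKM in all WT libraries, in 1 library of each mutant and in no Sham library, so the filter favoured these calls. Il18 went the other way, falling by 1.79 in WT (limma adjusted p = 1.75e-05) and rising by 1.98 (adjusted p = 1.05e-05) and 2.51 (adjusted p = 2.47e-06) in the mutants against WT.

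Among 18 transcription factors of chemokine promoters, all of them tested, 10 rose and 1 fell in WT against Sham, beside 16.4% and 41.9% of all genes. Their median was 0.53 beside -0.36 over all genes. Relb and Nfkb2, NF-kB subunits that are themselves NF-kB targets, rose by 2.38 (SE 0.188, limma adjusted p = 6.76e-07) and 2.34 (adjusted p = 6e-07). The stress factors Atf3 and Fos rose by 5.07 (limma adjusted p = 6.71e-08) and 4.01 (adjusted p = 2.04e-08). Relb, Nfkb2 and Rel, which also rose, reached 1 FPKM in no Sham library, so the filter favoured their rises. Against WT, 2 rose and 6 fell in RIPK1 D138N, beside 29.8% and 21.9% of all genes. In TNFR1/2 KO 2 rose and 4 fell, beside 29.6% and 17.5%. Relb was at 5.55, 7.34 and 6.32 FPKM in WT, at 1.27, 0.565 and 0.633 in RIPK1 D138N and at 1.11, 1.76 and 1.24 in TNFR1/2 KO, and fell by 2.04 (limma adjusted p = 3.38e-06) and 1.65 (adjusted p = 1.8e-05). Fos instead rose in both mutants over WT, by 1.15 in TNFR1/2 KO (limma adjusted p = 0.000402).

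Of 14 brakes on chemokine mRNA and NF-kB, 12 were tested. In limma 6 rose and 0 fell in WT against Sham, beside 16.4% and 41.9% of all genes. Tnfaip3, the deubiquitinase A20, rose by 2.77 (SE 0.265, limma adjusted p = 2.93e-06), and Zc3h12a, the RNase Regnase-1 that degrades cytokine mRNA, rose by 1.27 (adjusted p = 0.000618). Tnfaip3 reached 1 FPKM in no Sham library, so the filter favoured its rise. Against WT, 1 rose and 6 fell in RIPK1 D138N, beside 29.8% and 21.9% of all genes. In TNFR1/2 KO 1 rose and 0 fell, beside 29.6% and 17.5%. Between the mutants 0 of the 12 were called, beside 0.929% of all genes. Tnfaip3 was at 11.3, 5.53 and 9.52 FPKM in WT, from 1.90 to 3.80 in RIPK1 D138N and at 5.20, 8.34 and 5.23 in TNFR1/2 KO. Nfkbia, the NF-kB inhibitor IkB-alpha, was at 72.3, 75.5 and 62.6 FPKM in WT, 136.5, 86.5 and 106.8 in RIPK1 D138N and 98.8, 172 and 141.1 in TNFR1/2 KO. It was the 1 gene of the list that rose in both mutants, by 0.93 in TNFR1/2 KO (limma adjusted p = 0.00376).

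Of 11 proteases and scaffolds of chemokines, 10 were tested. In WT against Sham 3 rose and 1 fell, beside 16.4% and 41.9% of all genes. Mmp12, the macrophage elastase that trims chemokines, was at 3.79, 1.95 and 2.24 FPKM in WT and at 0.0992 or less in Sham, and rose by 1.74 (SE 0.19, limma adjusted p = 7.84e-06). It passed the filter only through WT, which favoured its calls in WT against Sham and in both mutants against WT. Dpp4, the dipeptidyl peptidase that shortens Cxcl12 and Cxcl10, fell by 1.65 (limma adjusted p = 7.51e-06). Against WT, 1 rose and 5 fell in RIPK1 D138N, beside 29.8% and 21.9% of all genes. In TNFR1/2 KO 1 rose and 4 fell, beside 29.6% and 17.5%. Dpp4 rose by 2.13 (limma adjusted p = 1.89e-06) and 2.12 (adjusted p = 2.17e-06), and Mmp12 fell by 1.69 (adjusted p = 1.31e-05) and 1.45 (adjusted p = 4.93e-05).

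The genes whose pattern over the 12 libraries was most like that of each chemokine were found by the root mean square difference of log2(FPKM + 1) after centring, as a description with no test. Nearest to Ccl2 were Ier3 (0.669), Hilpda (0.734) and Adm (0.754), beside a spread of 2.23 for Ccl2 itself. Nearest to Ccl7 were Hmox1 (0.356), Egln3 (0.495) and Plaur (0.495), where Hmox1 averaged 26.6 FPKM in Sham, 406.7 in WT, 52.2 in RIPK1 D138N and 86.1 in TNFR1/2 KO. Nearest to Cxcl2 were Rnd1, Maff and Fst (0.536 to 0.695), and nearest to Cxcl10 were Cyr61 (0.409), Atf3 (0.466) and Fos (0.559), all high in every ischemic group. Cxcl13 was nearest to Ly86 (0.138), Slc22a21 (0.147) and Cd300c2 (0.163). Cxcl9 was nearest to Rilp, Parp16 and Epcam (0.173 to 0.195), and Ccl5 to Tle2, Tmem131l and Tbx3os1 (0.261 to 0.293). Cxcl1 was nearest to Omd, Coa7 and Gstm3 (0.335 to 0.404), and Ccl3 to Bcl2a1a, Wdr33 and Dppa3 (0.145 to 0.148). None of these genes is a member, and Ccl4, which stayed under the filter, was not compared.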

How the data were processed

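Total RNA from liver was sequenced in 12 libraries, 3 each of Sham, WT, RIPK1 D138N and TNFR1/2 KO. The deposited table gives FPKM per gene. Per the submitters' processing notes, STAR 2.5.4a, Cufflinks 2.2.1 and Cuffdiff were used with build mm10. Strand setting, read counts and depth are not given in the sources used here; FPKM gives no fragment counts, and relative depth was read from the whole-number steps of values up to 0.15 FPKM, with 65 of 66 library pairs matching within 1%. For Ccl2, Ccl7, Ccl3, Ccl4 and Cxcl13 values worth up to 15 fragments came out whole within 0.15; larger ones were rounded to whole fragments and are approximate. Counting intervals are exact 95% intervals. The Sham and WT columns were matched to their group only, and the mutant columns to replicates.

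From the deposited values, limma 3.58.1 (R 4.3.3) was run with a mean-variance trend on log2(FPKM + 1), all 12 libraries in 1 model of 4 group means with no block, on the 11728 genes that reached 1 FPKM in 3 or more libraries. P-values were adjusted over all genes of a comparison and called under 0.05. The fit was tested on simulated data. Alternatives were a pseudocount of 0.1, no filter, median-of-ratios and quantile scaling, only the groups compared, each library left out, RIPK1 D138N replicates 2 and 3 left out, and a replicate block for the mutants. The 10 members and the gene lists were chosen with earlier results of these data known. All members were named, with at most 4 called genes of largest change per list and comparison and the 3 most like genes per member; other list genes given with values were chosen after those values were seen. Protein sequences were not used here.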

Additional observations from a re-analysis of the deposited data

How the results depend on the processing

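The rises of Ccl2, Ccl7, Ccl3, Cxcl2 and Cxcl10 in WT over Sham were called under every alternative run, as were the fall of Cxcl13 in all ischemic groups and the rises of Ccl5 and Cxcl9 in both mutants over WT. Members called lower in WT than in Sham numbered 3, but 1 with no filter, 1 with median-of-ratios and 1 with quantile scaling, and 1 to 2 with a library left out. Those called lower in RIPK1 D138N than in WT numbered 3, but 5 with quantile scaling, 1 without RIPK1 D138N replicates 2 and 3, and 3 to 5 with a library left out. Those called higher in RIPK1 D138N than in Sham numbered 5, but 3 with no filter and 4 to 5 with a library left out. Ccl2 was also not called in that comparison with only those groups fitted. Those called lower in RIPK1 D138N than in Sham numbered 1, but 1 to 2 with a library left out. In TNFR1/2 KO, members called lower than in WT numbered 3, but 3 to 4 with a library left out. Those called higher than in Sham numbered 4, but 3 to 4 in such fits. In the main fit 41.9% of all genes fell in WT against Sham, 21.9% in RIPK1 D138N and 17.5% in TNFR1/2 KO against WT. Against Sham 7.51% and 7.46% rose in these mutants, and 22.7% fell in RIPK1 D138N.

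Between the mutants 109 genes were called, but 60 with no filter, 20 with only those groups fitted, 39 without RIPK1 D138N replicates 2 and 3, and 27 to 588 with a library left out; members called lower numbered 0 to 3. With the replicate number as a block 11 genes and 0 members were called in limma. Same-numbered mutant libraries correlated at -0.0975, -0.202 and 0.0574 in their deviations, so the numbers do not pair them, and not every library correlated best with its own number. Against Sham, 3539 genes were called in RIPK1 D138N, but 1038 without replicates 2 and 3 and 2249 to 3509 with a library left out, and 3002 in TNFR1/2 KO, but 1856 to 2609 with a library left out.

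Values that turned sign were all uncalled in both fits. With median-of-ratios scaling, Ccl5 in WT against Sham went to 0.25 and Cxcl13 in RIPK1 D138N against WT to -0.0035. With quantile scaling, Ccl5 in WT against Sham went to 0.01, Cxcl13 and Cxcl1 in RIPK1 D138N against WT to -0.0036 and -0.77, Cxcl10 in TNFR1/2 KO against WT to -0.23 and Cxcl1 in TNFR1/2 KO against Sham to 0.04. Without RIPK1 D138N replicates 2 and 3, Cxcl10 against WT went to 0.39, Cxcl1 against Sham to 0.14, and Ccl2, Ccl7, Cxcl1 and Cxcl2 against TNFR1/2 KO to 1.24, 1.31, 0.49 and 1.15. With a library left out, Ccl5 in WT against Sham ran from -0.35 to 0.23, Cxcl1 and Cxcl13 in RIPK1 D138N against WT from -0.43 to 0.50 and from -0.06 to 0.10, and Ccl7 in RIPK1 D138N against Sham from -0.02 to 1.40. Between the mutants Ccl3 then ran from -0.06 to 0.18, Ccl7 from -1.38 to 0.03 and Cxcl2 from -1.10 to 0.34. The cause was not tested. Few fragments limit Ccl3, Ccl4 and Cxcl13.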
